A study of Homo sapiens with 6 samples.

Results

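The 35 antisense long noncoding RNAs (lncRNAs) described here are genes named as antisense that reached a set minimum of reads in every library of CAL62 thyroid carcinoma cells. They were chosen from the count table as the rows whose Ensembl identifier maps to a symbol ending in -AS and a number, and which hold at least 10 reads in each of the 6 libraries. They make up 35 of the 1295 such symbols in the table. Of the 1295, 1183 were listed at 0 in all libraries, 112 (8.65%) had at least 1 read in some library and 60 reached 10 reads in at least 1 library. By comparison, 81.9% of 19159 protein-coding rows had a read. The annotation used for counting is not given in the sources used here, 284 of 285 symbols of divergent transcripts were likewise at 0, and whether the zeros come from that annotation was not tested. The counts themselves chose the members, so their levels are a description, and a minimum in every library leaves out any antisense RNA that was close to 0 in 1 group. Just inside the minimum stood GAS6-AS1 and GCC2-AS1, each with 13 reads in its lowest library. SLC25A21-AS1, with 9, and CIRBP-AS1, with 7, fell just outside. Each antisense gene was set beside its sense gene, which is the gene whose symbol it carries (PAX8 for PAX8-AS1). All 35 sense genes stand in the table, and 32 passed the filter on low counts.

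CAL62 is an established line of anaplastic thyroid carcinoma, an undifferentiated thyroid cancer, and was labelled as wild type. The cells received 50 nM erianin, a natural compound from Dendrobium, or an equal concentration of its solvent DMSO, for 48 h, with 3 libraries in each group. Nothing in the labels says that the 3 libraries of a group came from separate cultures, so p-values measure the spread between these libraries, which may be technical. Reads counted on named genes ranged from 25776301 to 34107727 per library, and the 35 antisense lncRNAs took 0.0259% to 0.0319% of them (7355 to 10766 reads). DMSO replicate 3 stood apart. Its mean Euclidean distance over log2 CPM (normalized counts, scaled to a common library size) to the other DMSO libraries was 63.5, against 37.2 between those and 28.2 to 29.01 among the erianin libraries, so results are also given without it. Whether reads were counted by strand is not given in the sources used here. Without strand, reads from an antisense RNA and an overlapping sense gene cannot be told apart. In the annotation (GENCODE release 29 on GRCh38), 31 of the 35 share exonic bases with their sense gene and 4 do not (PARD6G-AS1, FOXD2-AS1, PTGES2-AS1 and MNX1-AS1). This annotation types 23 of the 35 as antisense, 7 as processed transcript and 5 as long intergenic noncoding RNA. Of the thyroid markers, the lineage transcription factor PAX8 was high, at a mean of 676 CPM in DMSO, TSHR and NKX2-1 were listed at 0 and TG and SLC5A5 had at most 13 reads in any library. The keratins KRT8 and KRT18 stood at 1408 and 890 CPM and vimentin (VIM) at 1289 CPM in DMSO, and CDH1, a marker of epithelial junctions, had at most 9 reads. The leukocyte markers PTPRC and CD3E had at most 6 reads. Of the fibroblast markers DCN was listed at 0, COL1A1 had 34.7 CPM in DMSO and 27.8 with erianin, and COL1A2 rose from 9.80 to 24.9 CPM (log2 fold change 1.35, edgeR adjusted p = 0.00532). The part of these markers in the results was not tested.

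Antisense lncRNAs are transcribed from the strand opposite to another gene, from within it, across it or from a start next to its promoter. In known cases they hold down or sustain their sense gene by transcription through its body, by recruiting chromatin regulators or by pairing with its mRNA, while others act far from the site where they are made. Many are short-lived and are removed by the nuclear RNA exosome. A name such as PAX8-AS1 states where the gene lies and not what it does. PAX8 itself drives thyroid development and the genes of thyroid hormone synthesis.

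Sequences are shown for the 5 antisense lncRNAs that passed the test for a change and for the pairs with the widest split between antisense and sense gene. For PAX8-AS1, PARD6G-AS1 and A1BG-AS1 the first bases of the RNA are printed, from the first exon of a GENCODE release 29 transcript on GRCh38, where no other annotated gene has an exon. They lie on the plus strand at chr2:113211522-113211619, chr18:80147924-80148073 and chr19:58347751-58347844. For AGAP2-AS1 the stretch is 256 bases of its second exon at chr12:57726974-57727229, which is also a coding exon of AGAP2 on the other strand.
PAX8-AS1: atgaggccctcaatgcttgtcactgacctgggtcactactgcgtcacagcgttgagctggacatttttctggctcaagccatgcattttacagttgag
PARD6G-AS1: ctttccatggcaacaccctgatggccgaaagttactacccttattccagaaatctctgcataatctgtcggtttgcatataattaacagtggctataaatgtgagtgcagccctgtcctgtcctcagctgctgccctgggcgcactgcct
A1BG-AS1: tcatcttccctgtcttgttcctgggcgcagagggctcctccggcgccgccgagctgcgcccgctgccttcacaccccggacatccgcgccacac
AGAP2-AS1: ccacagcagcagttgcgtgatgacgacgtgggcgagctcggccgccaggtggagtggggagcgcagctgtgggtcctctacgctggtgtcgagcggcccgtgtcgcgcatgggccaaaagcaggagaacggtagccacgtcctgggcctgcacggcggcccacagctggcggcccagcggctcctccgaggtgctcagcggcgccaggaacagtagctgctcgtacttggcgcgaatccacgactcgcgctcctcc

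Promoters came from RefSeq (GRCh38.p14), which held a window of 250 bases before to 50 after the start for 21 of the 35 antisense genes and 18 of the sense genes. Printed are those of FOXD2-AS1 (minus strand, chr1:47434592-47434891) and ARRDC3-AS1 (plus strand, chr5:91380097-91380396), the latter within the body of ARRDC3, and 221 bases of the PAX8 window upstream of its annotated exons (minus strand, chr2:113278951-113279171). Capitals mark matches, on either strand, to 7 motifs. These were the GC box GGGCGG, the CCAAT box, the ETS factor letters CCGGAAG, the TATA box TATAAA, the AP-1 site TGANTCA, the cyclic AMP response element TGACGTCA and the FOXO site GTAAACA. No matches overlap in the printed windows.
FOXD2-AS1: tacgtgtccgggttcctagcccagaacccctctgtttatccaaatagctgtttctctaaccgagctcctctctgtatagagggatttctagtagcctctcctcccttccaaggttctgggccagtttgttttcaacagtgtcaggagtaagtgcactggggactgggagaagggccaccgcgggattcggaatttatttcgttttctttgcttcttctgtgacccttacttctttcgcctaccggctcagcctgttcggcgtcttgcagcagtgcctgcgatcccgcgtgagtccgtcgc
ARRDC3-AS1: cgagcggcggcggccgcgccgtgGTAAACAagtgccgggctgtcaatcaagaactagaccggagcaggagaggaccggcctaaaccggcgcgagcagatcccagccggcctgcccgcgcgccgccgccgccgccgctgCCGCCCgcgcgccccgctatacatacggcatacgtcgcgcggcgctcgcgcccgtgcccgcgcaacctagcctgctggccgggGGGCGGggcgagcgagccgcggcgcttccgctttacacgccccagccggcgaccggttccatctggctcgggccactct
PAX8: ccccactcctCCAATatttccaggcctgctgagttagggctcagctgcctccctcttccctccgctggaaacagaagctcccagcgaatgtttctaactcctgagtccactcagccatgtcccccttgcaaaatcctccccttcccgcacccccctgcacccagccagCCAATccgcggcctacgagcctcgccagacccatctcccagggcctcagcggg

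In these letters the FOXD2-AS1 window held no match to any of the motifs, the ARRDC3-AS1 window held 2 GC boxes and 1 GTAAACA, and the PAX8 window held 2 CCAAT. Over the 21 antisense promoters, GGGCGG was found in 14 (66.7%), against 45.0% of all 35116 promoters of the same length. CCAAT was found in 5 of the 21 (23.8%), against 34.6% of all promoters. TGANTCA stood in 4 (19.0%, all promoters 7.71%), CCGGAAG in 2 (9.52%, all promoters 10.3%), GTAAACA in 2 (9.52%, all promoters 3.42%), TGACGTCA in 1 (4.76%, all promoters 1.85%) and TATAAA in none, against 11.5% of all promoters. Of the 18 promoters of sense genes, 14 held GGGCGG, 5 CCAAT, 3 CCGGAAG and 2 TGANTCA. None of these 18 held TATAAA, TGACGTCA or GTAAACA. Median GC content was 62.0% in the antisense promoters, 68.8% in the 18 of sense genes and 58.7% in all. The starts of TPT1-AS1 and TPT1, which encodes the translationally controlled tumor protein, lie 162 bases apart, and those of KTN1-AS1 and KTN1, the kinesin receptor kinectin, 115 bases apart. Their windows overlap by 261 and 214 bases, so each pair shares most of its promoter letters.

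Levels were uneven. By mean CPM over the 6 libraries, EPB41L4A-AS1, ADIRF-AS1 and OIP5-AS1 held 53.8% of all reads on the 35 genes, and the 5 most abundant, with PAX8-AS1 and DHRS4-AS1, held 67.6%. Per length, mean TPM (counts scaled by gene length and library total) in DMSO ranged from 0.0476 for ZBED3-AS1 to 62.3 for EPB41L4A-AS1, with a median of 2.61. After EPB41L4A-AS1 came ADIRF-AS1 at 37.2, OIP5-AS1 at 16.5, DHRS4-AS1 at 13.5, FOXD2-AS1 at 13.3 and AGAP2-AS1 at 11.9 TPM. The deposited TPM did not follow counts over GENCODE exonic length. PAX8-AS1 and GABPB1-AS1 have 17274 and 17179 exonic bases. In DMSO replicate 1 their 359 and 141 reads went with 2.36 and 1.77 TPM. This order and the TPM ratios to sense genes therefore depend on the lengths that the authors used.

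In 23 of the 35 pairs the sense gene had the higher mean TPM in DMSO, and the median ratio of sense to antisense TPM was 3.23. The ratio was 59.8 for PAX8, at 145 TPM against 2.42 for PAX8-AS1. GAS6, a ligand of the TAM receptor kinases, had 363 TPM against 0.481 for GAS6-AS1, a ratio of 756. Other pairs ran the opposite way. AGAP2, a GTPase-activating protein and PI3K enhancer, had 0.625 TPM beside AGAP2-AS1, and the forkhead factor FOXD2 had 3.46 TPM beside FOXD2-AS1. EPB41L4A, a band 4.1 family protein, had 2.56 TPM, a ratio of 0.0411 to its antisense RNA. The polarity protein PARD6G (1.76 TPM) and PARD6G-AS1 (1.41 TPM) were close, as were the centromere protein OIP5 (13.8 TPM) and OIP5-AS1. ADIRF was listed at 0 in all libraries beside the abundant ADIRF-AS1, and CD27, a lymphocyte receptor, had 4 to 13 reads beside the 316 to 651 of CD27-AS1.

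**Figure D1:**
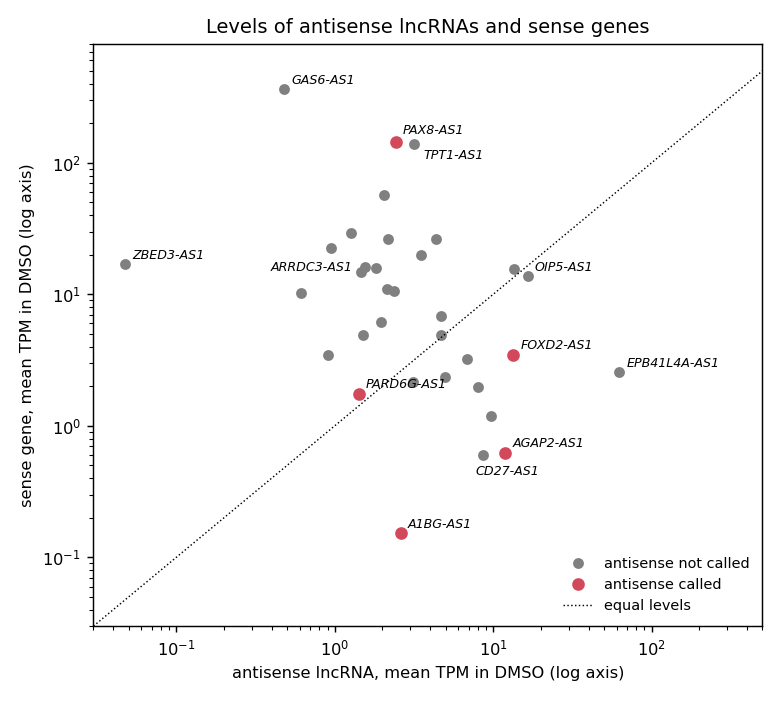
Mean TPM in the 3 DMSO libraries of each antisense lncRNA (horizontal, log axis) against its sense gene (vertical, log axis), for the 34 pairs with a sense gene above 0. Points above the dotted line of equal levels are the 23 pairs with the higher sense TPM, and red points are the 5 antisense lncRNAs called changed with erianin.

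Erianin and DMSO libraries were compared with edgeR's quasi-likelihood test over all 12821 genes that passed the low-count filter, with p-values adjusted by Benjamini-Hochberg. A gene counted as called when its adjusted p was below 0.05 and its log2 fold change beyond 0.5 in either direction. All 35 antisense lncRNAs were tested and 5 were called (14.3%), against 8.73% of all genes tested. PAX8-AS1, PARD6G-AS1 and FOXD2-AS1 rose (all genes called higher, 5.37%), and A1BG-AS1 and AGAP2-AS1 fell (all genes called lower, 3.36%). The share called is 5 genes of 35 and is close to the background. Estimates were higher with erianin for 15 and lower for 20, with a median log2 fold change of -0.09, against 0.00 over all genes tested. On the log2(TPM + 1) scale these medians were 0.11 and 0.18. The CPM of the 2 groups did not overlap for 9 of the 35 (25.7%), 4 above and 5 below, against 38.7% of all genes (19.5% above and 19.3% below). Without DMSO replicate 3 the same 5 were called, while the background rose to 17.5% (11.4% higher, 6.11% lower). Without DMSO replicate 1, or without any 1 erianin library, only PAX8-AS1 stayed called of the 5, and without DMSO replicate 2 all 5 did. For these fits the share called over all genes is not given here. The median coefficient of variation of the antisense lncRNAs over the 3 erianin libraries was 12.9%, against 5.25% over all genes tested, and 17.7% against 15.3% in DMSO. These genes were not matched for level, and the antisense lncRNAs had a median of 2.24 CPM, where counting noise is large.

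**Figure D2:**
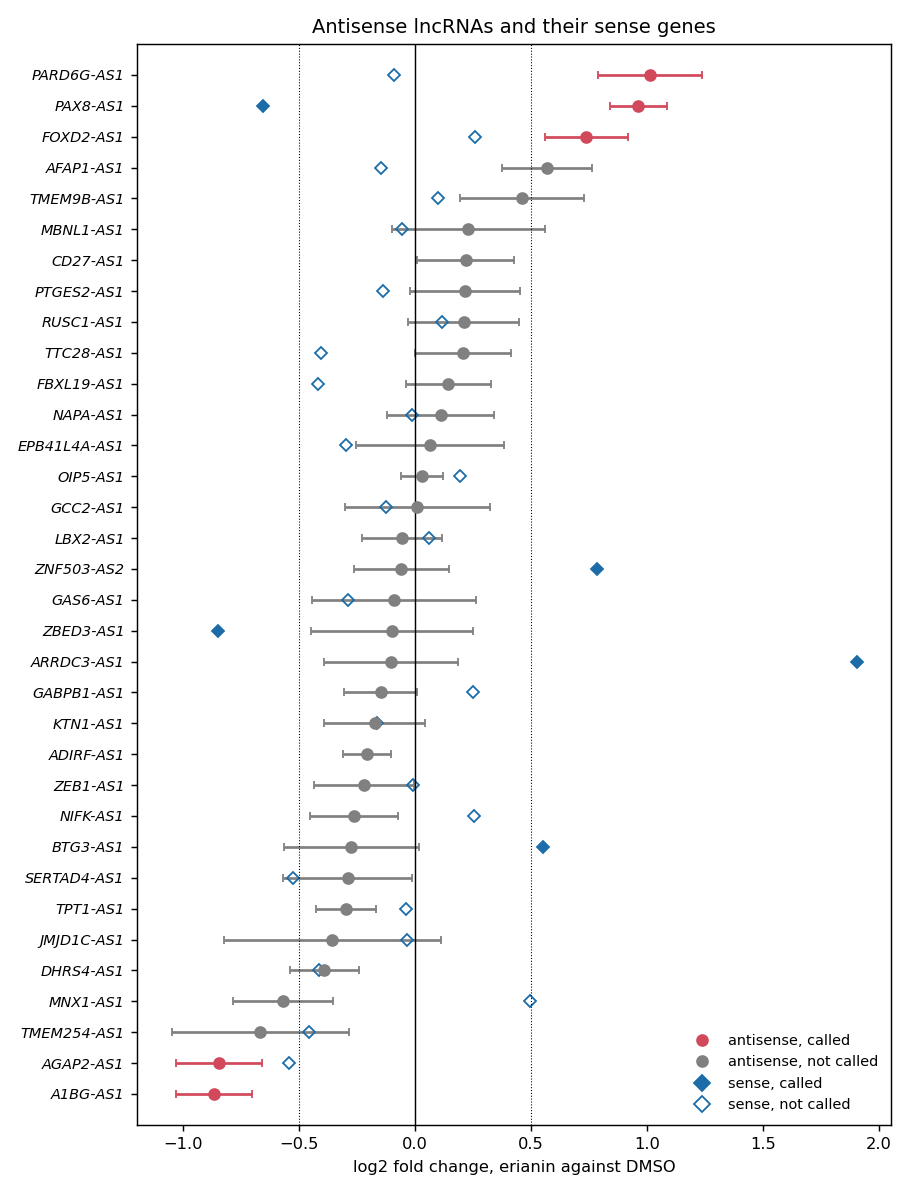
Log2 fold change of 34 of the 35 antisense lncRNAs (circles, bars are ± 1 SE) and of its sense gene (diamonds), erianin against DMSO, 3 libraries each. Filled diamonds and red circles are called, dotted lines mark a log2 fold change of 0.5 either way, and the row of PAX8-AS1 is the only one in which both genes are called, on opposite sides of 0.

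PAX8-AS1 (ENSG00000189223, chr2:113211522-113276581, plus strand) had 14.7, 16.0 and 15.8 CPM in DMSO replicates 1, 2 and 3 and 28.3, 35.0 and 27.4 CPM in the erianin replicates. Every erianin library was above every DMSO library. The mean rose from 15.5 ± 0.671 to 30.3 ± 4.16 CPM (SD, n = 3), a log2 fold change of 0.96 with an SE of 0.12 (edgeR adjusted p = 0.00463). Its sense gene PAX8 had 645, 643 and 739 CPM in DMSO and 433, 433 and 419 CPM with erianin, again without overlap but in the opposite direction. The mean fell from 676 ± 55.2 to 428 ± 7.88 CPM, a log2 fold change of -0.66 (SE 0.08, edgeR adjusted p = 0.00403). Per length, the ratio of PAX8 to PAX8-AS1 moved from 59.8 to 19.5. The genes end within each other and share 685 exonic bases, 3.97% of the exonic length of PAX8-AS1. PSD4, an Arf exchange factor that lies within 5000 bases on the same strand as PAX8-AS1 and shares no exonic bases with it, went from a mean of 58.0 to 29.8 CPM (log2 fold change -0.96, SE 0.11, edgeR adjusted p = 0.00402). Both tested neighbours of PAX8-AS1 fell while it rose.

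PARD6G-AS1 (ENSG00000267270, chr18:80147924-80178432, plus strand) had 1.07, 1.85 and 1.51 CPM in DMSO (26, 60 and 47 reads) and 2.72, 3.03 and 3.28 CPM with erianin (93, 106 and 115 reads). The groups did not overlap. The mean rose from 1.48 ± 0.392 to 3.01 ± 0.281 CPM, a log2 fold change of 1.01 (SE 0.23, edgeR adjusted p = 0.0250). PARD6G, which runs against its end without shared exonic bases, had means of 1.48 ± 0.224 and 1.39 ± 0.255 CPM (log2 fold change -0.09, edgeR adjusted p = 0.833), and the sign of that estimate turned when DMSO replicate 2 or erianin replicate 3 was left out and on the TPM scales. ADNP2, its neighbour on the same strand, had a log2 fold change of 0.10 (edgeR adjusted p = 0.468).

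FOXD2-AS1 (ENSG00000237424, chr1:47432133-47434641, minus strand) had 5.95, 6.78 and 4.21 CPM in DMSO and 9.37, 9.39 and 9.51 CPM with erianin. The lowest value was that of DMSO replicate 3, and the other DMSO libraries were also below all erianin libraries. The mean rose from 5.65 ± 1.31 to 9.42 ± 0.0747 CPM (log2 fold change 0.74, SE 0.18, edgeR adjusted p = 0.0325), and the log2 fold change was 0.55 without DMSO replicate 3. FOXD2 starts 1376 bases away on the other strand, does not overlap it, and had means of 2.75 ± 0.820 and 3.31 ± 0.369 CPM (log2 fold change 0.26, edgeR adjusted p = 0.504).

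A1BG-AS1 (ENSG00000268895, chr19:58347751-58355183, plus strand) had 3.78, 3.51 and 3.50 CPM in DMSO and 1.73, 1.98 and 2.198 CPM with erianin, all below the DMSO libraries. The mean fell from 3.60 ± 0.157 to 1.97 ± 0.236 CPM (log2 fold change -0.87, SE 0.16, edgeR adjusted p = 0.0147). A1BG, a plasma glycoprotein gene, was too low to test, with 5, 10 and 2 reads in DMSO and 2, 0 and 0 with erianin. A1BG-AS1 shares 781 exonic bases with A1BG and 827 with the zinc finger gene ZNF497 on the other strand, which went from 2.195 to 1.42 CPM (log2 fold change -0.62, edgeR adjusted p = 0.225). The part of ZNF497 reads in the value of A1BG-AS1 was not tested.

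AGAP2-AS1 (ENSG00000255737, chr12:57726271-57728356, plus strand) lies inside AGAP2 and shares 57.7% of its exonic length with AGAP2 exons, the printed exon among them. Its values were 3.33, 2.53 and 3.24 CPM in DMSO and 1.64, 1.57 and 1.83 CPM with erianin, without overlap. The mean fell from 3.03 ± 0.439 to 1.68 ± 0.131 CPM (log2 fold change -0.85, SE 0.19, edgeR adjusted p = 0.0237). AGAP2 had 1.31, 1.91 and 1.22 CPM in DMSO and 1.14, 0.744 and 1.17 CPM with erianin. The estimate had the same sign as that of its antisense RNA but did not pass the test (log2 fold change -0.55, SE 0.28, edgeR adjusted p = 0.240).

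**Figure D3:**
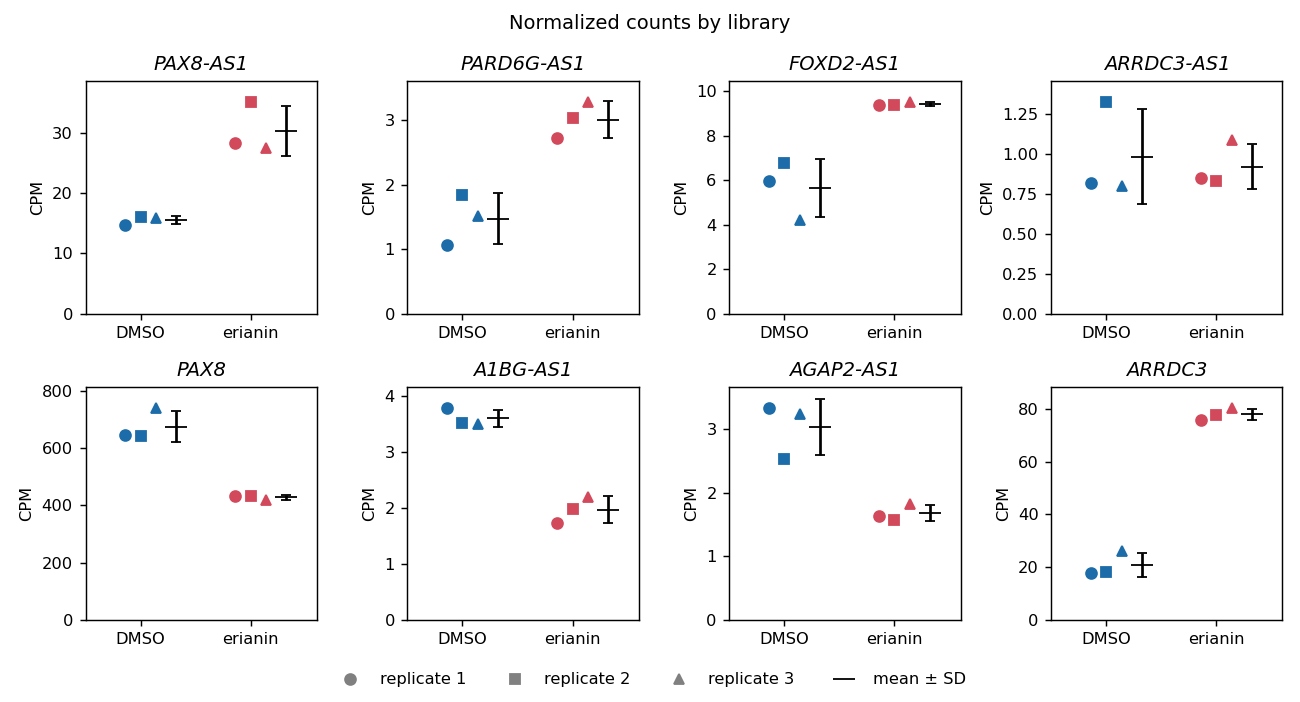
CPM in each library (symbols by replicate) with mean ± SD of 3 libraries, for the 5 called antisense lncRNAs and ARRDC3-AS1, and for the sense genes PAX8 and ARRDC3. Erianin libraries lie wholly above or below the DMSO libraries in all panels but that of ARRDC3-AS1, whose groups overlap.

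Of the 32 sense genes tested, 5 were called (15.6%, against the same 8.73% of all genes). ARRDC3, ZNF503 and BTG3 rose and PAX8 and ZBED3 fell. Apart from PAX8, the antisense partners of these genes were not called. ARRDC3, an alpha-arrestin that takes part in receptor trafficking, had 17.9, 18.2 and 26.2 CPM in DMSO and 76.0, 77.9 and 80.3 CPM with erianin, a log2 fold change of 1.91 (SE 0.16, edgeR adjusted p = 0.00105). ARRDC3-AS1 had 0.821, 1.32 and 0.803 CPM in DMSO and 0.849, 0.830 and 1.08 CPM with erianin. Its groups overlapped, and its log2 fold change was -0.10 (SE 0.29, edgeR adjusted p = 0.849). ZNF503, a zinc finger repressor, went from 9.04 ± 0.585 to 15.6 ± 0.739 CPM (log2 fold change 0.78, edgeR adjusted p = 0.00556), with ZNF503-AS2 at 2.10 ± 0.430 and 2.03 ± 0.110 CPM (edgeR adjusted p = 0.883). BTG3, an antiproliferative BTG/TOB protein, went from 12.8 ± 1.28 to 18.8 ± 0.261 CPM (log2 fold change 0.55, edgeR adjusted p = 0.0168), and BTG3-AS1 had 14 to 28 reads in every library (log2 fold change -0.28, edgeR adjusted p = 0.574). ZBED3, a BED-type zinc finger gene, went from 20.7 ± 5.43 to 11.5 ± 0.169 CPM (log2 fold change -0.85, edgeR adjusted p = 0.0216), with ZBED3-AS1 at 15 to 30 reads (log2 fold change -0.10, SE 0.35). The SEs of BTG3-AS1 and ZBED3-AS1 were 0.29 and 0.35. Whether edgeR could have called changes of the size seen in their sense genes was not tested. Without DMSO replicate 3, 8 sense genes were called, the further 3 being DHRS4, GAS6 and MNX1, while the share over all genes was 17.5%. Without any 1 erianin library, ARRDC3, ZNF503 and PAX8 stayed called, and BTG3 and ZBED3 did not. BTG3 was also lost without DMSO replicate 1 or 2.

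Whether the genes of a pair responded differently was tested on the log2 ratio of antisense to sense counts within each library, in which library size cancels, with limma over 3154 pairs of tested genes on opposite strands within 5000 bases. Of the 32 named pairs 3 were called (9.38%), against 8.69% of all such pairs. For PAX8-AS1 and PAX8 the log2 ratio was -5.45, -5.33 and -5.54 in DMSO and -3.93, -3.63 and -3.93 with erianin, a difference of 1.61 (SE 0.13, limma adjusted p = 0.00171). PARD6G-AS1 against PARD6G went from -0.42, 0.10 and 0.23 to 0.75, 1.05 and 1.55, a difference of 1.15 (SE 0.29, limma adjusted p = 0.0469). ARRDC3-AS1 against ARRDC3 went the other way, from -4.41, -3.77 and -5.00 to -6.46, -6.53 and -6.19, a difference of -1.999 (SE 0.35, limma adjusted p = 0.0189). In the first pair both genes moved, in the second the antisense RNA was called and in the last the sense gene. Without DMSO replicate 1, or without any 1 erianin library, only the PAX8 pair stayed called. Without a trend in the prior variance the PARD6G pair was lost and that of AFAP1-AS1 was called instead. Without DMSO replicate 2 the PARD6G pair was also lost, and without DMSO replicate 3 the count was 9 of 32, against 19.9% of all pairs.

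**Figure D4:**
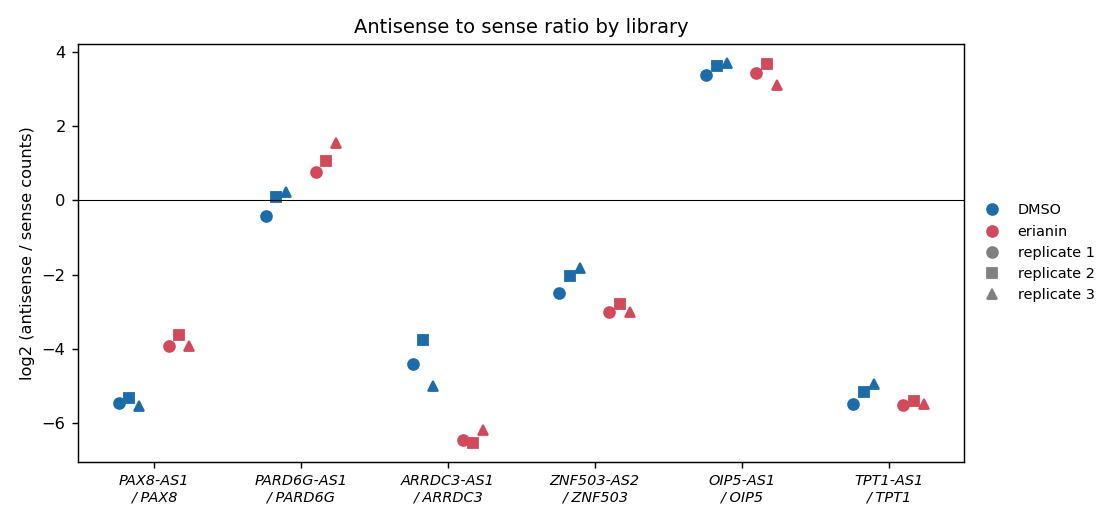
Log2 ratio of antisense to sense counts in each library for 6 pairs, DMSO in blue and erianin in red, with 0 as equal counts. The groups are apart for the 3 called pairs and for ZNF503-AS2, which was not called (limma adjusted p = 0.0595), and overlap for OIP5-AS1 and TPT1-AS1.

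Log2 fold changes of antisense and sense gene had the same sign in 15 of the 32 pairs and opposite signs in 17. Across these pairs Pearson's r was -0.04 and Spearman's rho 0.01, as a description over genes that share the same 6 libraries. The antisense RNA alone was called in 3 pairs, the sense gene alone in 4 and both in 1. By arrangement of the GENCODE gene bodies, 15 antisense genes lie inside or across their sense gene, and of these 2 fell and none rose. A further 10 begin within 1000 bases of the sense start on the other strand (head-to-head), and none of them was called. KTN1-AS1, close to KTN1 by its RefSeq start, is counted as inside or across because the GENCODE starts lie 21038 bases apart. Of the 9 whose ends run into the sense gene (tail-to-tail), PAX8-AS1 and PARD6G-AS1 rose. FOXD2-AS1 is the 1 that lies apart. Differences between arrangements were not tested.

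Of the 5 most abundant antisense lncRNAs, PAX8-AS1 was called and the other four were not. OIP5-AS1, a long cytoplasmic RNA known as Cyrano, had 46.7, 47.7 and 47.6 CPM in DMSO and 44.7, 52.9 and 47.4 CPM with erianin, with overlap (log2 fold change 0.03, SE 0.09, edgeR adjusted p = 0.860). ADIRF-AS1 had 58.5, 62.4 and 52.1 CPM in DMSO and 48.2, 54.9 and 46.7 CPM with erianin, also with overlap (log2 fold change -0.21, SE 0.10, edgeR adjusted p = 0.222). Without DMSO replicate 3 its groups did not overlap and the log2 fold change was -0.28 (edgeR adjusted p = 0.000334), under the fold threshold. EPB41L4A-AS1 had 69.8, 66.7 and 26.3 CPM in DMSO and 54.8, 57.1 and 58.4 CPM with erianin. DMSO replicate 3 alone was far below all other libraries. With it the log2 fold change was 0.06 (SE 0.32, edgeR adjusted p = 0.919), and without it the estimate turned to -0.27 (edgeR adjusted p = 0.000103), under the fold threshold. DHRS4-AS1 had 16.8, 16.8 and 23.0 CPM in DMSO and 13.9, 13.8 and 15.4 CPM with erianin. Its groups did not overlap, but it did not pass the test (log2 fold change -0.39, SE 0.15, edgeR adjusted p = 0.120). Without DMSO replicate 3 the log2 fold change was -0.23 (edgeR adjusted p = 0.0345), also under the fold threshold. DHRS4, a carbonyl reductase, had a log2 fold change of -0.42 and did not pass either (edgeR adjusted p = 0.0641).

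Other antisense lncRNAs without overlap between the groups, picked here after their values were seen, included AFAP1-AS1 above DMSO and MNX1-AS1 below it. AFAP1-AS1, opposite a gene for an actin filament protein, had 1.40, 1.48 and 1.51 CPM in DMSO and 2.55, 2.06 and 1.91 CPM with erianin (log2 fold change 0.57, edgeR adjusted p = 0.0904). MNX1-AS1, beside a motor neuron homeobox gene, had -0.57 (edgeR adjusted p = 0.120) while MNX1 had 0.50 (edgeR adjusted p = 0.278), and their ratio changed by -1.09 (limma adjusted p = 0.0512). Neither passed. The remaining log2 fold changes ran from -0.67 for TMEM254-AS1 (14 to 46 reads) to 0.46 for TMEM9B-AS1 (18 to 41 reads), with edgeR adjusted p of 0.283 and 0.288. TPT1-AS1, which shares promoter letters with TPT1, had -0.30 (edgeR adjusted p = 0.162) against -0.04 for TPT1. SLC25A30, which shares 98 exonic bases with TPT1-AS1 on the other strand, rose by 0.62 on the log2 scale (edgeR adjusted p = 0.0237). It and PSD4 were the 2 called among 18 other tested genes within 5000 bases of an antisense lncRNA, against 8.73% of all genes.

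Genes that turn over or bind such RNAs were taken as fixed lists. For counts at an unadjusted p under 0.05, or of estimates below 0, the share over all genes is not given here. No excess can be read from these counts. The median log2 fold change over all genes was 0.00 with edgeR. Of 16 tested genes of the nuclear RNA exosome and its adaptors none was called by edgeR, 2 had an unadjusted p under 0.05, and the median log2 fold change was 0.02, with 6 estimates below 0. On the log2(TPM + 1) scale the median was 0.27 with 1 below 0, against 0.18 over all genes. The nearest was C1D, an exosome cofactor, at 0.44 (edgeR adjusted p = 0.0828). MTREX, the exosome helicase, was listed at 0, and whether this comes from the annotation used for counting was not tested. Of 10 tested genes of nonsense-mediated decay none was called by edgeR and 2 had an unadjusted p under 0.05, with a median of 0.08, or 0.27 on the log2(TPM + 1) scale. SMG9, a regulator of the SMG1 kinase, had -0.44 (edgeR adjusted p = 0.0125), under the fold threshold, and the helicase UPF1 had 0.29 (edgeR adjusted p = 0.0888). Of 11 tested genes that edit or process RNA duplexes none was called by edgeR, and 3 had an unadjusted p under 0.05. Their 11 estimates were below 0 with a median of -0.20, but on the log2(TPM + 1) scale 4 were below 0 and the median was 0.02, against 0.18 over all genes. DGCR8, a cofactor of the microRNA-processing enzyme DROSHA, had -0.47 (edgeR adjusted p = 0.0339), again under the fold threshold. Among related noncoding genes, IRX2-DT was the 1 divergent transcript and NPTN-IT1 the 1 intronic transcript that met the same minimum, with log2 fold changes of -0.24 and 0.30, and neither was called.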

How the data were processed

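RNA of CAL62 cells, 3 libraries with DMSO and 3 with 50 nM erianin for 48 h, was sequenced on a BGISEQ-500. Deposited were raw counts of reads on each gene, and TPM values that the authors scaled by gene length. The submitters' processing notes name fastp 0.23.2, STAR 2.7.10, featureCounts 2.0.1, StringTie 2.2.1 and GRCh38. The annotation and strand setting are not given in the sources used here, which matters for antisense genes. The deposited TPM columns sum to 59.1% of their nominal total in DMSO replicate 3 and to 72.6% to 78.3% in the others.

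Of 65807 rows, 26480 without an identifier (at most 0.00515% of counts) were left out, and 159 identifiers on several rows were kept apart, with the symbol given to the row with most counts. Counts were tested with edgeR 4.0.16 in R 4.3.3 (TMM, filterByExpr, glmQLFit, glmQLFTest), group as the only term, with SEs from the F statistic. CPM are counts over TMM-scaled library sizes. Ratios were tested with limma 3.58.1 on log2 counts plus 0.5, with a trended prior variance. Positions and GC content came from GENCODE release 29. The alternatives were DESeq2 1.42.0, other factors and filters, log2(TPM + 1) and log2(TPM + 0.1), a replicate block, removal of the GC trend, other thresholds and left-out libraries. The steps were tested on simulated data. Tables and plots were made with pandas 2.3.3 and matplotlib 3.10.9 under Python 3.11.15.

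The members, lists and thresholds were chosen with earlier results of these data known. Named were the called members, the 5 with the highest mean CPM, their sense genes, members of called sense genes or ratios, the 2 members nearest each side of the minimum and up to 3 genes per list by adjusted p. Other members named were picked after their values were seen. Some genes of the set and lists are not reported here.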

Additional observations from a re-analysis of the deposited data

How the results depend on the processing

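Of the 5 called antisense lncRNAs, PAX8-AS1 kept its call under 16 of 16 alternative fits (log2 fold change 0.84 to 1.12, adjusted p up to 0.0341). PARD6G-AS1, FOXD2-AS1 and AGAP2-AS1 each lost it in 5 of 16 and A1BG-AS1 in 7, each time with the same direction. With the replicate number as a block, 1 antisense lncRNA was called (PAX8-AS1), 1 ratio, and 4 sense genes. The numbers are not shown to pair the libraries, since correlations of same-numbered deviations were 0.00138, 0.0253 and -0.0329. Above an absolute log2 fold change of 1, 1 antisense lncRNA (PARD6G-AS1) and 1 sense gene (ARRDC3) remained. Leaving out each library in turn gave 1 to 5 antisense lncRNAs, 3 to 8 sense genes and 1 to 9 ratios. The log2(TPM + 1) scale without a filter called 3 sense genes, and a pseudocount of 5 called 5 ratios. Except without DMSO replicate 3, the share over all genes or pairs is not given for these alternative fits, here or above. Whether lost calls go with fewer calls over all genes was not tested.

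On the TPM scales the median log2 fold change of all genes moved from 0.00 to 0.18 with log2(TPM + 1), 0.20 with log2(TPM + 0.1) and 0.12 without the filter. There the antisense lncRNAs had medians of 0.11, 0.15 and 0.07, still below all genes, and A1BG-AS1 at -0.46 on both log2(TPM + 1) scales and PAX8 at -0.45, -0.46 and -0.45 fell short of the fold threshold. Without DMSO replicate 2 the edgeR medians ran the other way, at 0.011 for the antisense lncRNAs and -0.002 over all genes. Among the called antisense lncRNAs, their tested sense genes, the called sense genes and the 5 most abundant antisense lncRNAs, 3 uncalled estimates turned sign. PARD6G was at 0.066, 0.098 and 0.066 on the TPM scales and ran from -0.22 to 0.047 over left-out libraries (0.035 without DMSO replicate 2, 0.047 without erianin replicate 3). OIP5-AS1 was at -0.050 with the GC trend removed and ran from -0.041 (without erianin replicate 2) to 0.074, and EPB41L4A-AS1 from -0.27 (without DMSO replicate 3) to 0.28. Other uncalled members also turned without DMSO replicate 3. Among them were ZEB1-AS1 (-0.22 to 0.02), ZBED3-AS1 (-0.10 to 0.12) and ZNF503-AS2 (-0.06 to 0.03). A minimum of 20 reads in the choice of members would have left 27, and of 5 reads 46. Variation between libraries, which may be technical, was estimated by edgeR at a coefficient of 0.139 with all libraries and 0.0421 without DMSO replicate 3. Depth limits the antisense lncRNAs under 1 CPM, with 13 to 46 reads in a library.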

Other observations

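Among antisense symbols below the minimum of 10 reads in every library, 11 were tested and 1 was called, against 8.73% of all genes tested. TFAP2A-AS2, antisense to the gene of the AP-2 alpha transcription factor, had 4, 9 and 13 reads in DMSO and 34, 29 and 21 with erianin, and its mean rose from 0.286 ± 0.127 to 0.808 ± 0.199 CPM (log2 fold change 1.45, SE 0.39, edgeR adjusted p = 0.0455). It reached 10 reads in only 1 DMSO library and so passed the low-count filter through the erianin group, where it was high, so its call supports nothing. TFAP2A itself had a log2 fold change of 0.16 (edgeR adjusted p = 0.693). UCKL1-AS1, antisense to a uridine kinase-like gene, had 10, 28 and 6 reads in DMSO and 54, 60 and 45 with erianin. With 6 reads in DMSO replicate 3, it likewise passed the low-count filter through the erianin group, where it was high. All erianin libraries were above the DMSO libraries, but the test was not passed (log2 fold change 1.62, SE 0.45, edgeR adjusted p = 0.0501). These values support nothing either. UCKL1 had -0.28 (edgeR adjusted p = 0.0553). Both antisense genes were picked after their values were seen.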
